A study of Mus musculus with 8 samples.

Results

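Among 15953 autosomal regions of 2 or more neighbouring probes, 23 regions (0.144%) gave a strong signal in fetal and in weanling mouse liver with little difference between the ages. A region was a run of array probes no more than 500 bp apart. It was kept when its mean log2 processed signal was 13 or more (8192 on the linear intensity scale) in the fetal channel and in the postnatal channel on both replicate arrays. Its log2 ratio of P21 over E17.5 also had to lie between -0.3 and 0.3 on both arrays, a difference of at most 1.23-fold. Both the signal and the ratio therefore chose these regions, and neither is tested here. The 23 regions held 102 of the 83122 probes on the arrays and carried 26 gene symbols. In 20 of them the probes were named for a single gene, and in the other 3 for several.

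The study compared liver DNA of C57BL6/J mice at E17.5, late in gestation, with liver DNA at P21, around weaning, with 2 biological replicates of each age. No genotype, treatment or transgene is given in the labels, and whether a replicate pools several livers is not stated. The methylated fraction was obtained by MCAM (methylated CpG island amplification on microarrays) and read on CpG island arrays. Every one of the 4 arrays, a pair of designs per replicate, paired Cy3-labelled fetal DNA with Cy5-labelled P21 DNA, and for lack of a dye swap the age and the dye cannot be told apart.

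DNA methylation in mammals sits mainly on cytosines followed by guanine. Most of the genome's CpG sites are methylated in somatic tissue, whereas CpG islands, the CpG-dense stretches found at many promoters, are mostly free of it. Islands that are methylated in somatic cells include those of germ-cell genes, of imprinted genes on 1 parental allele, and some islands that lie inside genes. MCAM cuts DNA with an enzyme blocked by methylation and then with a partner that cuts the methylated site CCCGGG, so that adaptors join, and PCR amplifies, fragments between methylated sites. Fetal liver is also a site of blood formation, and the fraction of hepatocytes in these samples was not measured. The arrays carried no unenriched DNA as a reference, so a probe's brightness also depends on its own sequence and on the fragment that carries it. The label "strongly methylated" thus stands for bright in the methylated fraction and could not be checked against a percentage of methylated molecules. Levels of different regions are given as signals and not ranked as degrees of methylation.

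The regions belonged to genes with very different promoters, and a few of these are printed to show that range. RefSeq promoters on GRCm38.p6 (300 bases, from 250 before to 50 after a transcription start) were found for 22 of the 26 symbols. CpG dinucleotides are in capitals. Cnmd (chondromodulin, a cartilage glycoprotein that limits vessel growth, chr14:79662134-79662433, minus strand) had the fewest, 1. H1f7 (a linker histone of spermatids, chr15:98257258-98257557, minus strand) had 6. Acrbp (the acrosin-binding protein of sperm, chr6:125049677-125049976, plus strand) had 17 and Tcp11 (a t-complex gene of the testis, chr17:28079715-28080014, minus strand) had 22. Celsr2 (a seven-pass cadherin of planar cell polarity, chr3:108415530-108415829, minus strand) had 40.
Cnmd: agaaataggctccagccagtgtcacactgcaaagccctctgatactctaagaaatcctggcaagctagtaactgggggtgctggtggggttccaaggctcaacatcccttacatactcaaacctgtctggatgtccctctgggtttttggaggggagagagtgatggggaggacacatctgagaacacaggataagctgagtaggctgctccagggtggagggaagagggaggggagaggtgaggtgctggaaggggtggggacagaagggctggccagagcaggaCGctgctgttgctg
H1f7: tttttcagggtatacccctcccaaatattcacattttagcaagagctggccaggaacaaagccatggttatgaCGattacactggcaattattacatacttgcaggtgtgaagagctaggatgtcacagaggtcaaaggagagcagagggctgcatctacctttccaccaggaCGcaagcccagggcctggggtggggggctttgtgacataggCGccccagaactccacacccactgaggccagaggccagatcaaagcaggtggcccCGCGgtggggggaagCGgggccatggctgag
Acrbp: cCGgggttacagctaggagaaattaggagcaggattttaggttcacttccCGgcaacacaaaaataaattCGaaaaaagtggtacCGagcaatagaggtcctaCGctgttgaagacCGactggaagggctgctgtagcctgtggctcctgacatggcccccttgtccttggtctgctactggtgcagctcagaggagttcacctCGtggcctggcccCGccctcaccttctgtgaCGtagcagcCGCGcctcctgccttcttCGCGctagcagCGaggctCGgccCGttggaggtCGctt
Tcp11: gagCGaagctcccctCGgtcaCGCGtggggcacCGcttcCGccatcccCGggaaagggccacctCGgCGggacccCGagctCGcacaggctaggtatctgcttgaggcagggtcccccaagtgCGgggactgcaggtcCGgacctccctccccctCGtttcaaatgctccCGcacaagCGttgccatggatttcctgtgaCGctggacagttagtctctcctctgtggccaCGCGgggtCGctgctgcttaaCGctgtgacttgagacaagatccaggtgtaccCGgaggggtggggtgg
Celsr2: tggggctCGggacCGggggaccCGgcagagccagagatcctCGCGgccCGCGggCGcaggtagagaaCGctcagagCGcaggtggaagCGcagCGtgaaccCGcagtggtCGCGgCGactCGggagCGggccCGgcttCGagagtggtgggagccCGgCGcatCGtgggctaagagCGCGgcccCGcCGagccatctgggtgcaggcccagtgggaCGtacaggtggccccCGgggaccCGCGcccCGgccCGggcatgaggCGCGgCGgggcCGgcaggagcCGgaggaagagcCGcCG

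The 22 symbols had 29 promoters, with a median of 17 CpG dinucleotides (range 1 to 44, the highest at Mbd6) and a GC content of 61.7% in the median. The 14309 promoters of all genes with an autosomal region had medians of 16 CpG dinucleotides and 58.3% GC. The MCAM site, CCCGGG, which reads the same on both strands, lay in 10 of the 29 promoters (34.5%), against 2724 of 14309 (19.04%). It occurred once in the Tcp11 promoter printed here and at 2 places in that of Celsr2. These promoters describe the genes. The sources used here do not name the build of the array coordinates, so whether a bright region lies at the promoter, in an exon or in an intron of its gene is not known. Array positions below are those of the probe names, without a build.

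Another region, chr7:72679388-72680459 in the array's coordinates, was named for a microRNA gene, Mir7-2, and at its last probe for Aen. Its mature product is printed 5′ to 3′ with the seed (bases 2 to 8) in capitals, since the seed pairs with target transcripts.
mmu-miR-7a-5p: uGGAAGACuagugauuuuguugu

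The gene groups below only order the description. Each replicate has its own arrays, so where a replicate was higher at both ages, livers and arrays cannot be told apart. Among genes of signalling and of the cell surface was Ticam1, the adaptor (TRIF) that carries signals from Toll-like receptors, at chr17:53908992-53910096. Its mean log2 signal was 16.64 and 16.74 at E17.5 and 16.47 and 17.03 at P21 (replicates 1 and 2). That is 16.69 ± 0.07 at E17.5 and 16.75 ± 0.40 at P21 (SD, n = 2), and the P21 values lay on both sides of the fetal pair. The Celsr2 region read 13.86 and 14.52 at E17.5 and 13.86 and 14.68 at P21, so the second replicate was higher at both ages. Gpr176, an orphan G-protein-coupled receptor, had a region of 2 probes at 13.23 and 13.40 in fetal liver and 13.36 and 13.18 in weanling liver, with the ages interleaved. A region named Clca5 on the array (Clca2 in the current RefSeq table), of the calcium-activated chloride channel regulators, read 14.45 and 13.88 at E17.5 against 14.62 and 14.16 at P21. Here the first replicate was the higher at both ages.

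Enzymes of lipid, glycan and xenobiotic metabolism, together with a relative of an acyltransferase, gave another 5 regions. Gdpd3, a glycerophosphodiester phosphodiesterase, read 15.89 and 16.32 at E17.5 and 15.63 and 16.22 at P21 over 5 probes at chr7:120815821-120817183. Of these probes, 3 were saturated at P21, so its P21 values are lower bounds. Its order against Ticam1 is not settled, since the median of the probes gave 17.67 for Gdpd3 and 17.09 for Ticam1. Xylt2, a xylosyltransferase that starts glycosaminoglycan chains on proteoglycans, read 15.10 and 14.77, then 15.31 and 15.01, at chr11:94491444-94492309. For both genes the measured ages overlapped. Pla2g3, a secreted phospholipase A2, read 14.28 and 14.13 in the fetus and 14.03 and 13.92 at P21. Hhatl, named Gup1 on the array and related to the hedgehog acyltransferase, read 13.52 and 13.32, then 13.29 and 13.10. In these last 2 regions both fetal values were above both P21 values, within the window that the rule set. Gstm2, a mu-class glutathione S-transferase, had its 4 values between 13.39 and 13.71, the lowest and the highest both fetal.

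Nuclear and RNA regulators were represented by 4 regions. Mbd6, named for its methyl-CpG-binding domain, had 7 probes at chr10:127020133-127021633 and read 15.60 and 15.33 at E17.5 and 15.36 and 15.23 at P21. Probes named for Ing4, a PHD-finger protein that reads a histone methyl mark, and for its neighbour Acrbp formed 1 region of 8 probes at chr6:125704683-125706257. That region read 14.92 and 15.56 at E17.5 and 14.99 and 15.66 at P21, so replicate 2 stood higher at both ages by more than the ages differed. The Mir7-2 and Aen region (Aen is a nuclease named for enhancing apoptosis) read 14.36 and 14.41, then 14.14 and 14.60, with the P21 values outside the fetal pair on both sides. Cpeb2, which binds cytoplasmic polyadenylation elements in mRNA, read 14.20 and 13.75, then 14.10 and 13.61, higher on replicate 1 at both ages.

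Acrbp, H1f7, Tcp11 and Mybl1, a MYB-family activator of meiotic genes, have known roles in the testis or in sperm. They were put together after their values were seen, with no share over all regions to read them against, so their number is not a result. The list of germline genes holds only Acrbp of them. The H1f7 region, named 1700026P10Rik on the array, read 14.41 and 14.69 at E17.5 and 14.20 and 14.97 at P21 over 5 probes at chr15:98311750-98312773. The Tcp11 region read 13.93 and 13.76 in the fetus and 14.13 and 14.03 at P21 over 3 probes at chr17:25876195-25876854. Both of its P21 values lay above both fetal values, the only region of the 23 with that order. Mybl1 read 13.38 and 13.30, then 13.43 and 13.31, over 2 probes at chr1:9804592-9805018, with the ages interleaved.

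The remaining regions were named for genes of protein turnover, membranes and structure. Ube2r2, a ubiquitin-conjugating enzyme, read 14.76 and 13.63 at E17.5 and 14.62 and 13.44 at P21, the largest gap between replicates among the 23. Zdhhc8, a protein palmitoyltransferase, read 13.77 and 14.30, then 13.62 and 14.31, and Stx8, an endosomal syntaxin, read 13.41 and 13.01, then 13.33 and 13.06. In all 3 the replicates stood further apart than the ages. A region shared by Ctxn1, a neuronal membrane protein, and Timm44, part of the mitochondrial import motor, read 13.27 and 13.88, then 13.45 and 13.76. Meltf (named Mfi2 on the array), the iron-binding melanotransferrin, read 13.71 and 14.08, then 13.41 and 14.02, and Cnmd (named Lect1) read 13.59 and 13.99, then 13.36 and 13.72. Espn, an actin-bundling protein of stereocilia, held the most probes, 9, and read 13.13 and 13.85, then 13.12 and 13.57. In these 4 regions replicate 2 was higher than replicate 1 at both ages.

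**Figure D1:**
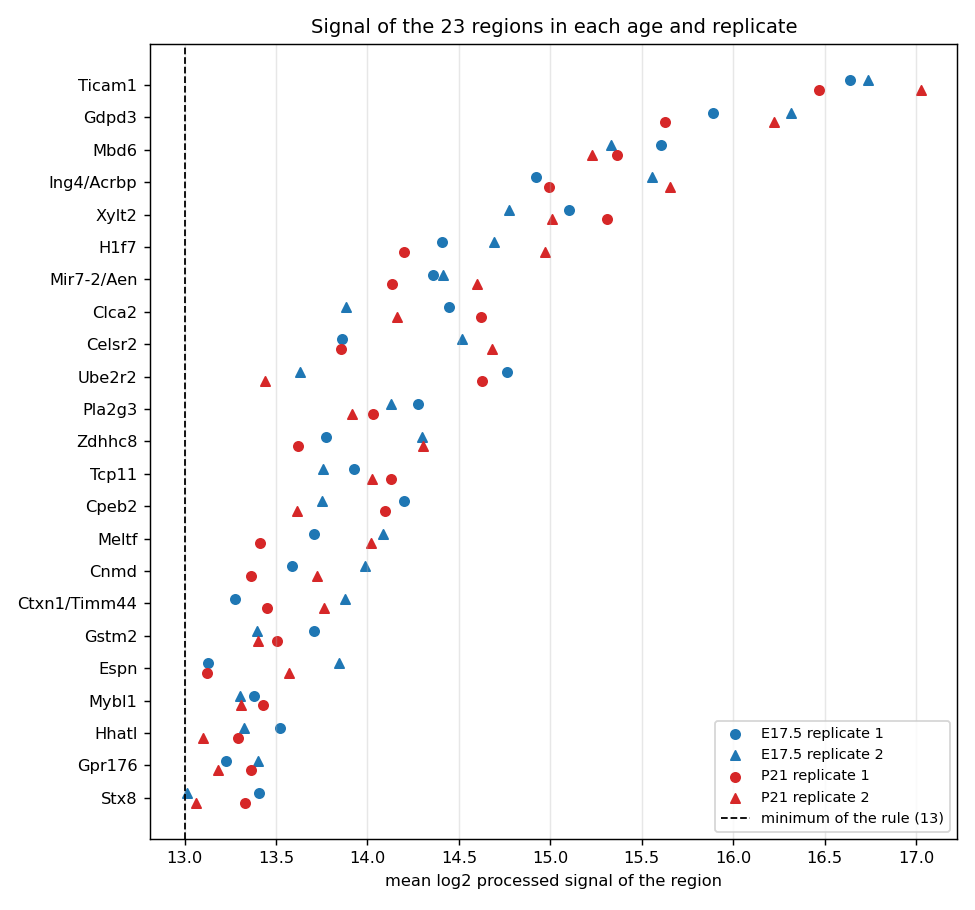
Mean log2 processed signal of each of the 23 regions (x axis) in E17.5 (blue) and P21 (red) liver, with circles for replicate 1 and triangles for replicate 2; the dashed line is the minimum of 13. Points of one replicate tend to lie together, as the ratio window favours. Regions range in their mean over all 4 values from 13.20 (Stx8) to 16.72 (Ticam1).

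In the plot of signals by age and replicate, replicates were further apart than ages for most regions. The ranges of the ages overlapped in 20 of the 23 regions, as the rule favours. The 3 exceptions were Tcp11, Pla2g3 and Hhatl. In 19 of 23 regions the difference between replicates was larger than that between ages. The rule favours this too, since it limits the difference between ages and not that between replicates. The share over all regions was not worked out, so the count is not read as a result. Both ages of a replicate shared an array, whereas the replicates lay on different arrays, and signals were not centred. Differences between replicates thus include those of array scale and cannot be told apart from differences between livers. At E17.5 the probe medians of replicates 1 and 2 were 8.85 and 8.27 on the chr1-chr10 design, and 8.41 and 8.10 on the chr11-chrY design. The median absolute difference between replicates was 0.38 at E17.5 and 0.45 at P21 on the log2 scale, and the median absolute difference between ages was 0.18, which the window limits to 0.3. Neither replicate was brighter throughout: 12 regions were higher on replicate 1 and 11 on replicate 2. The ratio of P21 over E17.5 was negative on both arrays in 9 regions, positive on both in 5, and of opposite sign in 9. These ratios were not centred, and their medians over all autosomal regions were -0.04 on replicate 1 and -0.11 on replicate 2. The counts of signs are thus not read as a property of the 23.

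Against all autosomal regions the 23 lay at the top of the distribution, which the signal minimum of the rule fixed in advance. The median level of all 15953 regions, averaged over ages and replicates, was 8.60, and every one of the 23 was at or above the 99.35th percentile. Between 0.740% and 0.827% of all regions reached 13 in any given age and replicate, and 85 (0.533%) reached it in all 4. The probes' median log2 signal lay between 8.06 and 8.85 per array and channel, and that of the negative control spots between 5.66 and 6.55.

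The window on the ratio removed 62 of these 85 regions. P21 was higher outside the window on both arrays in 16 of the 62, and lower on both in 9. In 14 the ratio left the window on replicate 1 alone, in 22 on replicate 2 alone, and in 1 it did so with opposite signs. The 62 had a median level of 14.30 and a median of 5 probes, against 14.00 and 4 in the 23. Nipal3 (0.306 on replicate 2) and Galnt18 (0.304 on replicate 1) were just outside the window, while Meltf (-0.29 on replicate 1) and Ticam1 (0.29 on replicate 2) were just inside. At the signal minimum, the lowest single value was 13.01 for Stx8, 13.10 for Hhatl and 13.12 for Espn, whereas Ak1 (12.96), Ak3l1 (12.94) and Tyms (12.93) narrowly missed it.

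**Figure D2:**
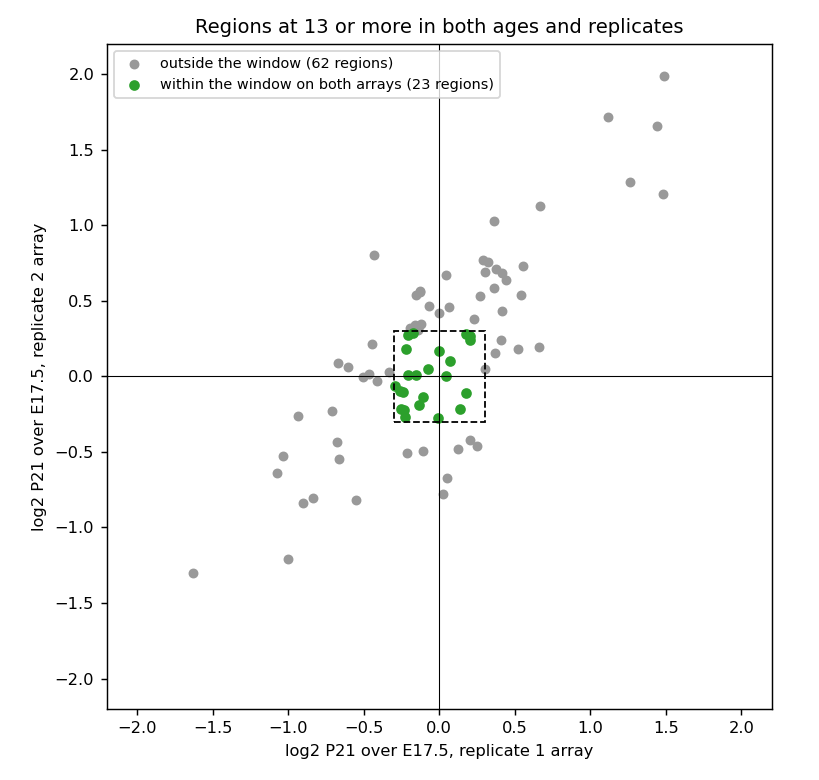
Log2 ratio of P21 over E17.5 on the replicate 1 array (x axis) and the replicate 2 array (y axis) for the 85 autosomal regions at 13 or more in both ages and replicates. Green points are the 23 regions inside the dashed window of -0.3 to 0.3, grey points the 62 outside it, of which 16 lie above the window on both arrays and 9 below it on both.

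How far membership carried over to an array that had not been used to choose it was read by applying the rule to one replicate at a time. The replicate 1 arrays alone gave 65 regions (0.407% of all), and 23 of them (35.4%) also met the rule on replicate 2, where 0.282% of all regions did. The replicate 2 arrays alone gave 45 regions, and 23 (51.1%) met the rule on replicate 1. With the signal minimum alone, the carry-over was 85 of the 109 regions chosen on replicate 1 (0.683% of all), or 78.0%, and 85 of the 113 chosen on replicate 2 (0.708% of all), or 75.2%. Brightness was thus shared by the replicates for about 3 in 4 regions, and signal and small ratio together for fewer. Of the 65 regions chosen on replicate 1, 64.6% had a ratio within the window on replicate 2, against 51.4% of the 109 chosen on signal alone and 71.4% of all regions. Of the 45 chosen on replicate 2, 60.0% were within it on replicate 1, against 47.8% of the 113 chosen on signal alone and 89.0% of all regions. A small ratio on one array was therefore followed by a small ratio on the other more often than among bright regions in general, and less often than among all regions, most of which were dim. These shares were not tested.

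Signal was uneven along most of the 23 regions. The largest step between neighbouring probes was 3 or more on the log2 scale in 14 of 23 regions (60.9%), against 58.8% of all autosomal regions. It was 5 or more in 10 of 23 (43.5%), against 19.4%. Each of the 14 steps had the same direction at both ages on both replicates, and the smallest in any single channel was 2.60. The median largest step was 3.61 in the 23, 3.40 over all autosomal regions and 2.47 in the 62 bright regions outside the ratio window. The mean over probes, which the rule used, can be carried by a few very bright probes. Whether the choice of regions favours large steps was not tested.

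The Ing4 and Acrbp region showed 1 such edge. Its first 2 probes, both named for Ing4, averaged 10.09 and 10.34, and the next, 325 bp from the first, averaged 17.28. From there to the last probe at 1518 bp, all probes lay between 16.51 and 17.31, and those named for Acrbp were all in the bright stretch. In the Mir7-2 and Aen region, the 3 bright probes (17.79, 17.82 and 17.52) were named for the microRNA. The single probe named for Aen, 1017 bp from the first, averaged 7.07, a fall of 10.45 from its neighbour and the largest step of the 23. The first probe, also named for the microRNA, averaged 11.68. Bright signal here thus lay on some of the probes of the microRNA gene and not on that of Aen.

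In Xylt2, 2 bright probes (18.37 and 19.28) stood between 2 dimmer ones (10.89 and 11.66). Espn was bright over its first 5 probes, from 16.01 to 17.08, and its last 2 averaged 7.02 and 7.99. The Clca5 region fell from 16.04 to 7.39 at its last probe, and Cnmd from 14.59 to 8.28. Mbd6 rose from 13.29 to 18.54 between neighbouring probes 852 and 990 bp from its first, with 5 of its 7 probes at 13 or more at both ages on both replicates. Stx8 had a mean above 13 from 1 bright probe (16.26) beside one at 10.14.

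At the other end, 5 regions had no step of 1 or more in the mean of both ages and replicates: Ticam1, H1f7, Celsr2, Ube2r2 and Mybl1. At these steps single channels reached 1.01 in Ticam1 (P21 replicate 1) and 1.11 in Ube2r2 (E17.5 replicate 1). They reached 1.24 in Celsr2 and 1.03 in Mybl1 (both E17.5 replicate 2). In Ube2r2 and Mybl1 the channels did not share the direction of the step. Ticam1's 5 probes averaged 15.80, 16.30, 17.16, 17.21 and 17.11, and those of H1f7 lay between 14.17 and 15.16 over 963 bp. Every probe reached 13 at both ages on both replicates in 4 regions, those of Ticam1, H1f7, Celsr2 and Ube2r2. Over all 23 regions, 71 of the 102 probes did so, and 14 probes in 10 regions averaged below 11. All 102 probes were well above background at both ages on both replicates. In Gdpd3, Mir7-2/Aen and Clca5, 6 probes were saturated on at least 1 array, in every case in the red channel of P21 and never in the green channel of E17.5. In Gdpd3 and Mir7-2/Aen the P21 signals of both replicates, and the ratios of P21 over E17.5, are therefore lower bounds. Whether these ratios lie within the window and the ages overlap is not settled. In Clca5 this holds for replicate 1 alone, and whether its ratio there lies within the window is not settled. Its P21 value on replicate 2, 14.16, lay between the fetal values of 13.88 and 14.45, so its ages overlapped. None of these 3 regions met the rule without the saturated spots.

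**Figure D3:**
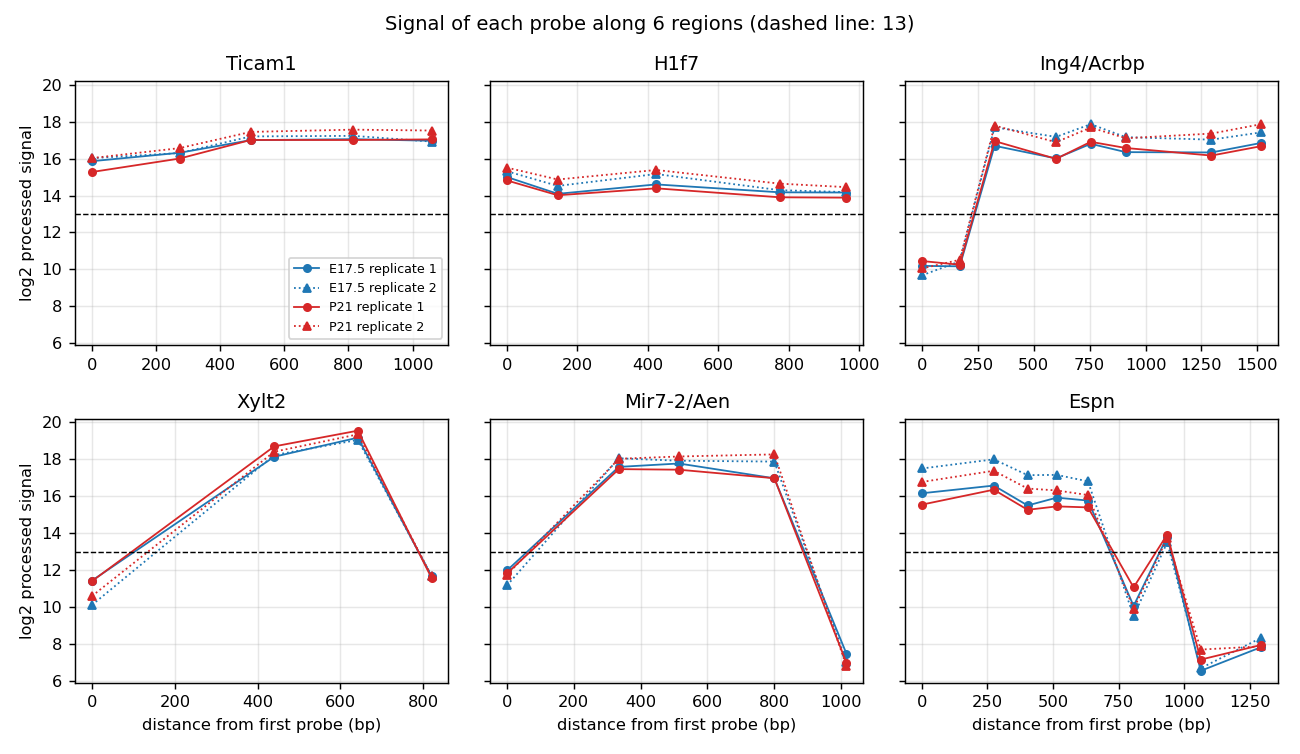
Log2 processed signal (y axis) of each probe against its distance in bp from the first probe of its region (x axis) for 6 regions, with E17.5 in blue, P21 in red, solid lines for replicate 1 and dotted lines for replicate 2. Ticam1 and H1f7 stay above the dashed line at 13 throughout, whereas the other 4 regions cross it at the same probes in both ages and replicates.

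The regions next to the 23 on the chromosome were near the array's usual level. These 46 neighbours, at a median distance of 17618 bp, had a median of 8.92, against 8.60 for all autosomal regions. None of the 46 reached a level of 13, which is also rare among all regions (0.533% in all 4 channels), so the count of 0 does not set them apart. Other regions named for the same gene on the array were found for 12 genes, 18 regions in all including regions of a single probe. None of the 18 reached 13, a count to be read against the same low share, and their levels ran from 6.20 to 12.31 with a median of 8.75.

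Levels differed widely within some genes. Ing4 had a second region of 6 probes, 8646 bp away, at 7.81, which was 7.47 below the mean of the region shared with Acrbp. That second region read 8.04 and 7.54 at E17.5 and 8.05 and 7.63 at P21, so it was dim in every sample. In the shared region the probes named for Ing4 averaged 10.09, 10.34 and 17.28, so the gap of 7.47 is not one within Ing4 alone. Mbd6 had a further region of 9 probes at 8.54, 6.85 below its bright one, and a single probe 3526 bp away at 11.23, 4.15 below. Aen had another region of 5 probes at 7.92, 6.46 below the mean of the region shared with Mir7-2. The single Aen probe of that shared region was itself dim (7.07), so this gap is not one within Aen. Tcp11 had a single further probe 567 bp away at 6.60, and Stx8 one 856 bp away at 6.20. Of the 18 regions, 7 lay under 1000 bp from the bright one, the nearest at 535 bp (Zdhhc8, at 8.58). Celsr2 had the smallest contrast, with a probe 797 bp away at 12.31. Espn's other 3 regions were at 10.19, 10.24 and 10.98.

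**Figure D4:**
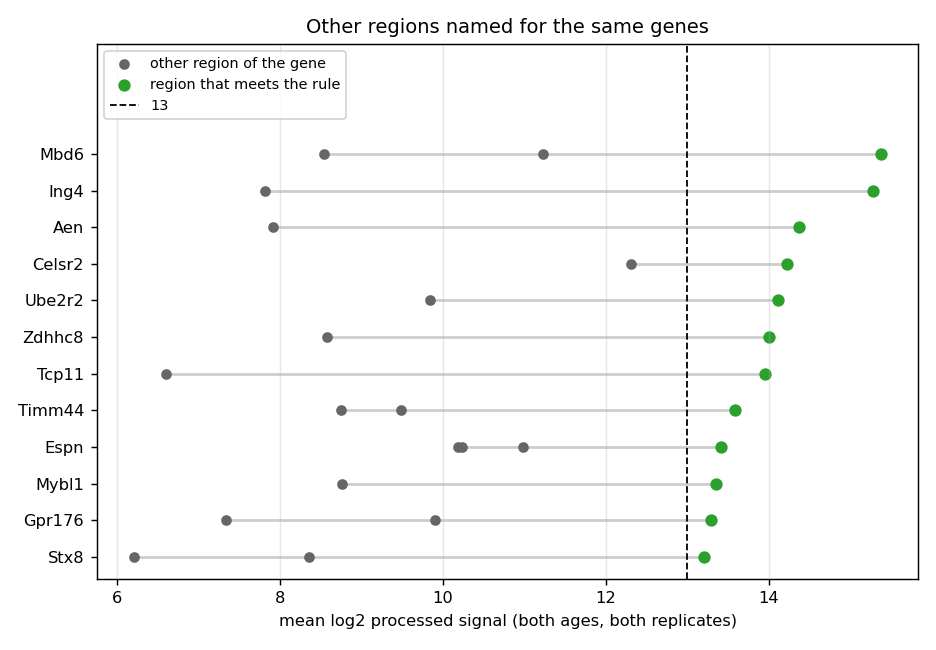
Mean log2 processed signal over both ages and both replicates (x axis) of the bright region (green) and of the other regions carrying the same gene name (grey) for the 12 genes that had any; grey lines join regions of a gene and the dashed line is 13. All 18 other regions lie below 13, from 6.20 at Stx8 to 12.31 at Celsr2.

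In size the regions were close to the rest. They had a median of 4 probes and a length of 868 bp, against 5 probes and 1031 bp over all autosomal regions. They were spread over 15 of the 19 autosomes, with 3 each on chromosomes 3 and 11, and none on chromosomes 12, 13, 18 and 19. Chromosome 16 had 2 of 538 regions (0.372%) and chromosome 2 had 1 of 1335 (0.0749%). With 23 regions in all, such counts cannot rank the chromosomes. The array designs held 12 of 8209 regions (0.146%) and 11 of 7744 (0.142%). No pair of the 23 was closer than 429436 bp, and no gene had more than 1 of them.

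By gene class, 19 of the 23 regions were in none of 29 lists of gene families and liver-related groups. The 4 others (17.4%) were each the single one of its list, and 29.2% of all autosomal regions were in some list. Acrbp was 1 of 64 regions of germline genes (1.56%), H1f7 was 1 of 57 of histone genes (1.75%), and Mbd6 was 1 of 54 of the DNA methylation and chromatin machinery (1.85%). Gpr176 was 1 of 173 regions of neurotransmitter and orphan G-protein-coupled receptors (0.578%). These shares stand beside 0.144% of all regions, but each rests on 1 region.

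The other 25 lists held none of the 23. Among them were 41 regions of Hox genes (median level 8.41), 60 of imprinted genes (8.80), 80 of mature hepatocyte genes (8.67), 21 of fetal liver and oncofetal genes (9.05), 361 of solute carriers (8.81) and 833 of olfactory and vomeronasal receptors (6.61). In 50 regions of erythroid genes, which mark the blood-forming cells of fetal liver, none met the rule. In this list 2 regions, of Ermap and Cbfa2t3, reached 13 in all 4 channels, as did 0.533% of all regions. Both were brighter at P21 than at E17.5 on both arrays. Other lists held such regions too, among them 2 of 143 for motor and cytoskeleton genes. Counts this small are not read as a result. The part of blood cells in the signals of the 23 regions was not tested.

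For orientation, 10 genes of liver, germline or imprinted loci or with a known change had 15 regions, none among the 23. Alb and Afp, the adult and fetal serum albumin family genes, were at 7.63 and 6.71, and Dazl, a germ-cell RNA-binding protein, at 10.31. Igf2 (7.63) and Igf2r (8.18), imprinted growth regulators, and the 2 regions of Hnf4a (8.33 and 8.80), a hepatocyte transcription factor, were also far below 13. Nrbp2, a pseudokinase gene, averaged 14.79 but read 12.45 and 13.06 at E17.5 and 16.53 and 17.10 at P21. Pbld1 averaged 14.28 and read 15.80 and 15.27, then 13.27 and 12.79. These last 2 regions were as bright on average as several of the 23 and differed between the ages on both replicates. Bdh1, which makes ketone bodies, had regions at 8.35 and 12.14, and Slc38a4, an amino acid transporter, had 4 from 6.89 to 11.90.

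Across all 18946 regions, limma's moderated test of P21 over E17.5 called 0 at an adjusted p of 0.05 and 2-fold (0% of those tested), with 2598 at an unadjusted p under 0.05. None of the 23 was called, and since the rule used this contrast nothing is read from that. The replicates are separate biological samples per the labels, and 2 of them limit every value given here.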

How the data were processed

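Methylated DNA of E17.5 and P21 liver was read on 4 two-colour Agilent arrays, 2 replicates on each of 2 designs. Per the file headers, the authors extracted the intensity values with Agilent's Feature Extraction software, version 9.1.1.1 on 1 array and version 9.1.3.1 on the rest, subtracting background and scaling each dye linearly. The submitters' processing notes name 9.1.1.1. The scanner tables deposited for both ages of a replicate are identical, so green columns were read for E17.5 and red for P21. The deposited log10 ratio, red over green, was used to check direction. Intensity values in the authors' deposited series table are on a linear scale and uncentred, all within 1% of the scanner values.

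Control spots were left out, and the mean log2 signal of each region's probes was taken without centring. Members, gene lists and named genes were chosen with earlier results of these data known: the 12 regions of highest signal, those with the most probes, those in lists, those with the largest gaps to other regions of a gene, and those nearest the limits were named, with others given for completeness. Gene names in the files were updated through the RefSeq table for GRCm38.p6, 7 of them among the members. Other regions of a gene were matched by the name in the files. Ratios centred on each array's median were tested in limma 3.58.1 (R 4.3.3) with Benjamini-Hochberg adjustment. This step was also run on simulated ratios with the same spread in every region, which does not show its power in these data. Both ages share an array, so the ratio is paired by construction, and deviations of the channels of an array correlated at 0.83 and 0.52 on the 2 designs. Python 3.11.15 and pandas 2.3.3 did the rest.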

Additional observations from a re-analysis of the deposited data

How the results depend on the processing

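The number of regions and of gene symbols depended on every limit of the rule. Against 23 regions and 26 symbols, a signal minimum lower by 0.5 gave 50 and 54, and one higher by 0.5 gave 13 and 15. A ratio window of -0.2 to 0.2 gave 8 and 10, -0.5 to 0.5 gave 44 and 51, and no window gave 85 and 98. Joining probes up to 200 bp apart gave 75 and 74, single probes included as regions gave 76 and 79, and every probe at 13 or more gave 4 and 4. Under normexp with the minimum at the same percentile, 5 regions and 6 symbols were left, and 1 of the 5 was among the 23. Leaving out 1 replicate gave 45 to 65 regions and 52 to 72 symbols. The other alternatives gave 17 to 32 regions, of which 17 to 23 were shared with the 23. Without saturated spots 20 remained, and with the median of the probes 17. The carry-over between replicates was 78.0% and 75.2% with no window. With the minimum higher by 0.5, the share of receptor regions fell to 0%, as Gpr176 left. The shares of the other 3 lists moved by less than their counting error in the few alternatives run for them. These were the minimum moved by 0.5 either way, 1 replicate left out, and gene symbols as the unit. Each share rests on 1 region, so that error is wide and shows little about stability. Other windows, the median of the probes, every probe at 13 or more and normexp were not run for the lists.

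Levels stayed within 1 SD of the replicates in 0 of 23 regions under normexp (10.26 to 13.64), in 10 with the median of the probes (13.20 to 17.67, with Mir7-2/Aen moving from 14.38 to 17.46), and in 18 without outlier and saturated spots (12.09 to 16.72). Normexp started from mean signals without the linear dye scaling of the processed signals, whose factors ran from 2.71 to 16.27. Its levels are therefore on a lower scale, and their fall shows nothing about stability. The cause of the other shifts was not tested. With 2 replicates, leaving out 1 always stays within 1 SD and shows nothing about stability.

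The limma count stayed at 0 with loess, with the filter on dim probes, with a trend, and with no replicate block (4 unpaired channels), and was 116 (105 higher and 11 lower) with normexp. Leaving out a replicate leaves no test. With 2 arrays per locus and no unenriched reference, signal over background limits what a dim probe shows.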
